A study of Fukomys damarensis and Heterocephalus glaber and Cavia porcellus with 28 samples.

Results

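The troponin genes were followed in heart and liver of 4 rodent species. The set was fixed by name as the 8 mouse genes for slow skeletal, fast skeletal and cardiac troponin T (Tnnt1, Tnnt3, Tnnt2), troponin I (Tnni1, Tnni2, Tnni3) and troponin C (Tnnc1, which cardiac and slow skeletal muscle share, and Tnnc2, the fast skeletal form). Rows of the deposited tables were found by the mouse Ensembl identifier of each symbol. Of 13928 genes in each table, 7 of the 8 were found: Tnnt1 (ENSMUSG00000064179), Tnnt2 (ENSMUSG00000026414), Tnnt3 (ENSMUSG00000061723), Tnni1 (ENSMUSG00000026418), Tnni3 (ENSMUSG00000035458), Tnnc1 (ENSMUSG00000091898) and Tnnc2. Tnni2, the fast skeletal troponin I gene, is not analysed here.

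Troponin is the calcium switch of striated muscle and sits on the actin filament with tropomyosin. Troponin C binds calcium, troponin I holds back the interaction of myosin with actin when calcium is low, and troponin T anchors the complex to tropomyosin. Each subunit has isoforms encoded by separate genes, and the genes are arranged as neighbouring pairs of one troponin T and one troponin I gene. In the gene order of the Damaraland mole-rat RefSeq assembly DMR_v1.0_HiC, Tnnt1 and Tnni3 had 0 genes between them, and Tnnt2 and Tnni1 had 1, Lad1. Slow skeletal and cardiac genes thus stand side by side in both of these pairs. In the developing mammalian heart the slow skeletal troponin I is the main form, and the cardiac form takes over around and after birth. Cardiac troponin I carries an amino-terminal extension that protein kinase A phosphorylates, and the slow skeletal form lacks it.

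The study compared gene expression evolution in mole-rats by sequencing ribosomal-RNA-depleted total RNA. Naked and Damaraland mole-rats live underground in Africa; guinea pig and mouse served as outgroups. Heart libraries came from 3 naked mole-rats aged 13 to 17 months, 5 Damaraland mole-rats aged 36 to 48 months, 3 guinea pigs aged 2.3 months and 3 mice aged 2 months. Liver was sampled over the same labelled age ranges from 4 naked and 5 Damaraland mole-rats, and from 3 guinea pigs and 2 mice. The labels conflict for 1 Damaraland animal, given as 48 months for heart and 36 months for liver. No treatment or genotype is labelled, the 28 libraries came from 18 animals, of which 10 gave both tissues, and 1 library, a Damaraland liver, is labelled female. A name such as naked mole-rat 1 gives the library number within a tissue. The same number in heart and liver can stand for different animals. Species and age were confounded, so that a difference between species and one between ages cannot be told apart. The same holds for species and the gene model reads were assigned to, since no length correction is contained in the values. The labels do not say which part of the heart each piece of tissue came from.

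Recovered reads per library ran from 4089633 to 26985779 in heart, with naked mole-rat 3 the lowest, and from 11220505 to 21467939 in liver. Values are those deposited, variance-stabilised to a scale close to log2 on which 0 reads stand at 5.36 in heart and 4.29 in liver. The scale compresses differences of genes with few reads. Scaled reads are the reads recovered from these values divided by the library's size factor; they are not per gene length, so levels of different genes are not compared. A gene was called between species at a limma adjusted p under 0.05 and a difference of at least 1. Among markers set to check the tissue, 0 of 8 cardiomyocyte genes were called between mole-rat and outgroup hearts on average. By pair, 3 of 8 were called between naked and Damaraland mole-rat, 2 in each of naked mole-rat against guinea pig, naked mole-rat against mouse and Damaraland mole-rat against guinea pig, 0 in Damaraland mole-rat against mouse and 1 in guinea pig against mouse. Over all heart genes tested, 23.4% were called on average (10.8% higher and 12.6% lower) and 29.4% to 38.2% by pair. The counts of every heart gene list below stand beside these shares. Myh6, the alpha cardiac myosin heavy chain, ran from 79102 to 518123 scaled reads in naked and from 768224 to 1074730 in Damaraland mole-rat hearts. The libraries hold bulk tissue, in which fewer cells of a type and less RNA per cell cannot be told apart.

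Slow skeletal troponin genes set the species apart in heart. Tnni1 and Tnnt1 were both higher in mole-rat than in outgroup hearts, Tnni1 by 4.25 (SE 0.37, limma adjusted p 3.39e-08) and Tnnt1 by 3.81 (SE 0.24, limma adjusted p 9.15e-10). The cardiac genes moved less: Tnnt2 differed by 0.72 (SE 0.26, limma adjusted p 0.0206), Tnnc1 by 0.63 (SE 0.17, limma adjusted p 0.00409) and Tnni3 by -0.55 (SE 0.13, limma adjusted p 0.00164), all under the size threshold. Thus 2 of the 5 troponin genes tested were called, against 23.4% of all 10667 genes tested (10.8% called higher and 12.6% lower). Tnnt3 and Tnnc2 had too few reads to be tested. The median of the 5 differences was 0.72, and that of all genes tested was -0.01. The plot of heart values by library shows the spread behind these means.

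**Figure D1:**
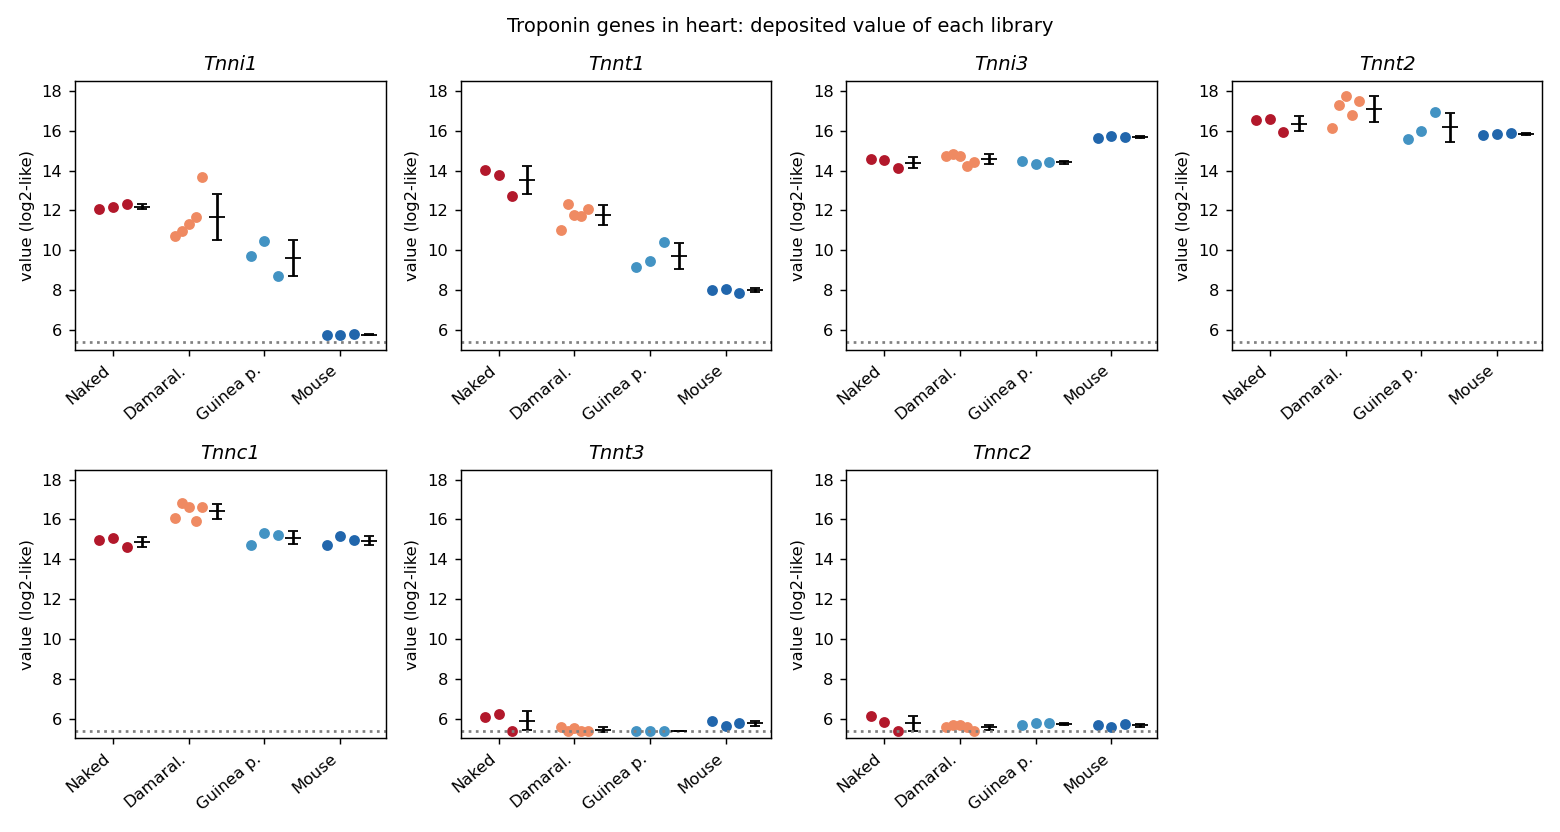
Deposited log2-like value of each heart library (points, in replicate order) for 7 troponin genes, by species (n = 3, 5, 3 and 3 from naked mole-rat on the left to mouse), with mean and SD at the right of each species; the dotted line is the value of 0 reads, 5.36. Tnnt1 steps down from naked mole-rat to mouse without overlap, mouse Tnni1 lies near the dotted line, and Tnnt3 and Tnnc2 stay close to it in every library.

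Tnni1, slow skeletal troponin I, had 4178, 4558 and 5093 scaled reads in naked mole-rats 1, 2 and 3. In Damaraland mole-rats 1 to 5 it had 1606, 1936, 2500, 3138 and 12896 scaled reads. In guinea pigs 1, 2 and 3 it had 758, 1308 and 333. Every mole-rat library therefore lay above every outgroup library, as did 7.57% of all genes tested. In the 3 mice Tnni1 had 4 reads each, or 2.65, 3.11 and 3.21 scaled reads. Over the mouse libraries together this was 0.160 reads per 1000000, with an exact 95% Poisson interval of 0.0825 to 0.279 that covers counting error only. Mouse hearts were thus the lowest of all, a place that mouse took for 14.7% of genes.

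By pairs of species the order for Tnni1 was naked mole-rat (mean value 12.19 ± 0.14, SD, n = 3), Damaraland mole-rat (11.67 ± 1.17, n = 5), guinea pig (9.61 ± 0.88, n = 3) and mouse (5.75 ± 0.02, n = 3). The 2 mole-rat species, neighbours in this order, did not differ beyond their spread, at 0.52 (SE 0.49, limma adjusted p 0.371). Naked mole-rats exceeded guinea pigs by 2.58 (SE 0.55, limma adjusted p 0.000676), and Damaraland mole-rats exceeded them by 2.06 (SE 0.49, limma adjusted p 0.00168). In mean scaled reads these were 5.77-fold and 5.52-fold differences, the second being 2.87-fold without Damaraland mole-rat 5. Guinea pigs exceeded mice by 3.86 (SE 0.55, limma adjusted p 1.45e-05), naked mole-rats by 6.44 and Damaraland mole-rats by 5.92. Part of the gap between mole-rats and outgroups for Tnni1 was thus already present between the outgroups themselves. Damaraland mole-rat 5 stood above the rest of its species, and without it the difference between the mole-rat species became 1.02 and passed the threshold (limma adjusted p 0.00874).

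The Damaraland library highest in Tnni1 was also the highest of its species in Bmp10, Myl4 and Nppa, genes of the cardiac atrium, but not in Sln, the atrial regulator of the calcium pump. Sln had 1559 scaled reads there and 452 to 2189 in the other Damaraland hearts. Bmp10, an atrial growth factor, had 1236 scaled reads in Damaraland mole-rat 5 and 4.37 to 40.8 in the other Damaraland hearts. It had 1497 in naked mole-rat 3 and 5.84 to 11.0 in the other naked mole-rats. Guinea pig 2 had 6229 scaled reads of Myl4, the atrial essential myosin light chain, against 48.9 and 113 in the other guinea pigs. In each of these species the library highest in Myl4 was the one highest in Tnni1. The summed level of the 6 atrial markers in the table (of 7 listed) was 6926 to 39991 scaled reads in naked mole-rats, 3561 to 24886 in Damaraland mole-rats, 1742 to 19041 in guinea pigs and 1067 to 4020 in mice. Of the 6, 3 were called higher in mole-rats (Nppa, Sln and Bmp10), beside 10.8% of all genes, and none was at 0 in all libraries of a species. Bmp10 had enough reads to be tested only through naked mole-rat 3 and Damaraland mole-rat 5. Bmp10 had 0 scaled reads in 2 mice and 0.802 in the other.

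Without these 3 libraries, a setting chosen after the values were seen, mean Tnni1 was 4368 scaled reads in naked mole-rats, 2295 in Damaraland mole-rats, 545 in guinea pigs and 2.99 in mice. The mole-rats then exceeded the outgroups in Tnni1 by 4.17 (limma adjusted p 1.59e-09), and the same number of troponin genes, 2, was called. The libraries kept were not equal in atrial genes. Their Myl4 ran from 622 to 1031 scaled reads in naked and 9.72 to 307 in Damaraland mole-rats. It ran from 48.9 to 113 in guinea pigs and 33.8 to 49.7 in mice. The part of atrial tissue in the Tnni1 result was not tested. The 2 mole-rat species then differed in Tnni1 by 0.95 (limma adjusted p 0.00773), just under the size threshold. The plot of Tnni1 against 2 of the atrial genes shows where these libraries lie.

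**Figure D2:**
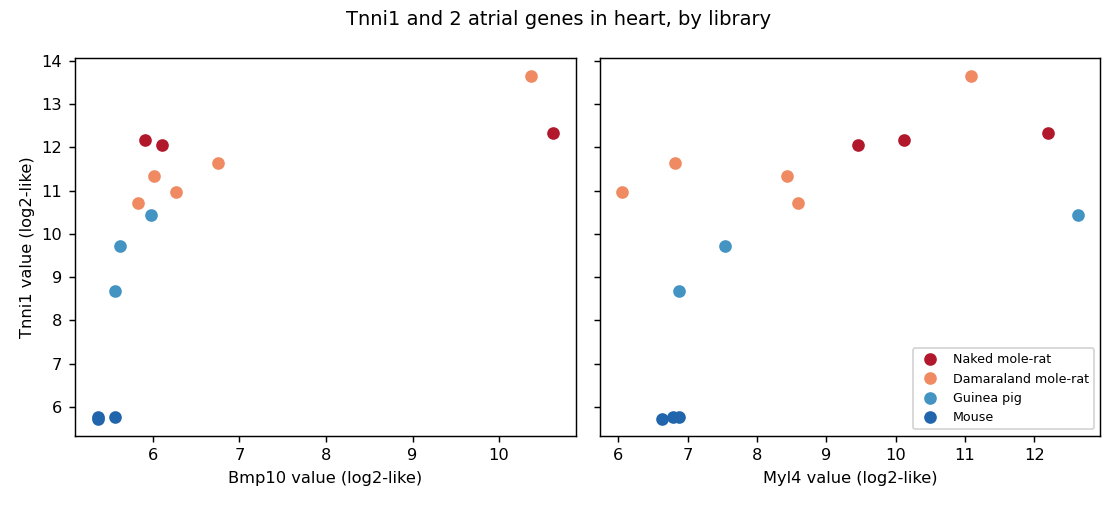
Tnni1 value against the value of Bmp10 (left) and Myl4 (right) in each of 14 heart libraries, all on the deposited log2-like scale, coloured by species. Naked mole-rat 3 and Damaraland mole-rat 5 stand far right for Bmp10, guinea pig 2 stands far right for Myl4, and the mice stay lowest in Tnni1.

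Tnni3, cardiac troponin I, was set apart by the mouse. It had 24594, 23235 and 17662 scaled reads in naked mole-rats 1 to 3, and 27290, 29263, 27572, 19355 and 22006 in Damaraland mole-rats 1 to 5. Guinea pigs 1 to 3 had 22892, 20672 and 22037. Mice had 51473, 54883 and 52545 scaled reads. Every mouse library lay above every other library, as for 16.4% of genes, while the other species overlapped. Relative to mouse, Tnni3 differed by -1.29 in naked mole-rats (SE 0.20, limma adjusted p 2.85e-05), by -1.09 in Damaraland mole-rats (SE 0.18, limma adjusted p 4.74e-05) and by -1.27 in guinea pigs (SE 0.20, limma adjusted p 4.01e-05). Quantile normalisation brought these differences to -0.91, -0.72 and -0.84, under the size threshold. Among naked mole-rat, Damaraland mole-rat and guinea pig the differences in Tnni3 were -0.20 to 0.18 with none called.

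The sum of Tnni1 and Tnni3 reads mostly repeats the Tnni3 levels, since Tnni1 made up at most 36.9% of it in any library. Reads were added without regard to gene length. Tnni1 and Tnni3 together gave 26440 ± 3229 scaled reads in naked mole-rats (SD, n = 3), 29512 ± 4524 in Damaraland mole-rats (n = 5), 22666 ± 873 in guinea pigs (n = 3) and 52970 ± 1744 in mice (n = 3). The mouse libraries lay above all others for this sum.

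Tnnt1, slow skeletal troponin T, had the most ordered pattern of the set. Naked mole-rats 1 to 3 had 16478, 14210 and 6653 scaled reads, or values of 14.02, 13.80 and 12.72. Damaraland mole-rats 1 to 5 had 1977, 5090, 3366, 3292 and 4247. The lowest naked mole-rat library was thus above the highest Damaraland library. Guinea pigs had 498, 626 and 1295 scaled reads and mice 184, 189 and 158. No library overlapped with one of another species in the order naked mole-rat, Damaraland mole-rat, guinea pig, mouse, a pattern found in 0.581% of genes tested; the libraries of no 2 species overlapped, in any order, for 8.42%. This pattern was noticed in the data and was not used as a test.

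All 6 pairs of species were called for Tnnt1. Naked mole-rats exceeded Damaraland mole-rats by 1.73 (SE 0.33, limma adjusted p 0.000213), guinea pigs by 3.82 (SE 0.36, limma adjusted p 1.5e-07) and mice by 5.53 (SE 0.36, limma adjusted p 1.32e-09). Damaraland mole-rats exceeded guinea pigs by 2.09 (SE 0.33, limma adjusted p 3.2e-05) and mice by 3.80 (SE 0.33, limma adjusted p 2.95e-08). Guinea pigs exceeded mice by 1.71 (SE 0.36, limma adjusted p 0.000694). In mean scaled reads the steps down the order were 3.46-fold, 4.46-fold and 4.55-fold. Naked mole-rat 3, the library of lowest depth and highest in Bmp10 of its species, was the lowest of the naked mole-rats in Tnnt1. Without the 3 libraries high in atrial genes the difference between the mole-rat species was 2.21 (limma adjusted p 7.89e-05).

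Tnnt2, cardiac troponin T, had more variable levels. It had 94336, 100123 and 62323 scaled reads in naked mole-rats, and 71595, 161717, 217994, 113751 and 186933 in Damaraland mole-rats. Guinea pigs had 48551, 64876 and 126306, and mice 57472, 57717 and 60459. The species overlapped, apart from mouse, whose libraries lay under every mole-rat library. Mean values were 17.10 ± 0.64 in Damaraland mole-rats (n = 5), 16.36 ± 0.37 in naked mole-rats, 16.17 ± 0.71 in guinea pigs and 15.84 ± 0.04 in mice (SD, n = 3 each). Only Damaraland mole-rat against mouse was called, at 1.26 (SE 0.34, limma adjusted p 0.00412), and no neighbours in this order were. Damaraland mole-rats differed from guinea pigs by 0.93 (SE 0.34, limma adjusted p 0.0273), under the size threshold, but the pair passed without guinea pig 3 (1.32, limma adjusted p 0.0051), Damaraland mole-rat 1 (1.17) or Damaraland mole-rat 4 (limma adjusted p 0.0260). Quantile normalisation also called naked minus Damaraland mole-rat at -1.38, Damaraland mole-rat minus guinea pig at 1.16 and guinea pig minus mouse at 1.03.

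Tnnc1, the troponin C of cardiac and slow muscle, was high in 1 species. Damaraland mole-rats 1 to 5 had 69890, 114676, 99675, 62783 and 100699 scaled reads. Naked mole-rats had 31797, 33919 and 24878. Guinea pigs had 27288, 40370 and 38565, and mice 26413, 36219 and 32396, so that every Damaraland library lay above every other library, as for 8.62% of genes. Naked minus Damaraland mole-rat was -1.54 (SE 0.23, limma adjusted p 2.07e-05), and Damaraland mole-rats exceeded guinea pigs by 1.32 (SE 0.23, limma adjusted p 9.56e-05) and mice by 1.47 (SE 0.23, limma adjusted p 2.71e-05). Naked mole-rat, guinea pig and mouse differed from each other in Tnnc1 by -0.22 to 0.15, none called. The 2 mole-rat species thus differed in opposite directions for 2 troponin genes, with Tnnt1 higher and Tnnc1 lower in the naked mole-rat.

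Over the 5 tested genes, the counts of called troponin genes by pair stood against the share of all genes called as follows. Naked against Damaraland mole-rat gave 2 of 5 beside 29.4% of all genes. Naked mole-rat against guinea pig gave 2 beside 33.0%, and against mouse 3 beside 38.2%. These counts were near or a little above what the genes at large gave. Damaraland mole-rat against guinea pig gave 3 beside 29.7%, and against mouse 5 beside 34.9%. Guinea pig against mouse gave 3 beside 32.1%. Pairs with a species in common share its libraries. The plot of pairwise differences sets these side by side, with Tnni1 and Tnnt1 far from 0 against mouse and Tnnt2 between -0.74 and 1.26.

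**Figure D3:**
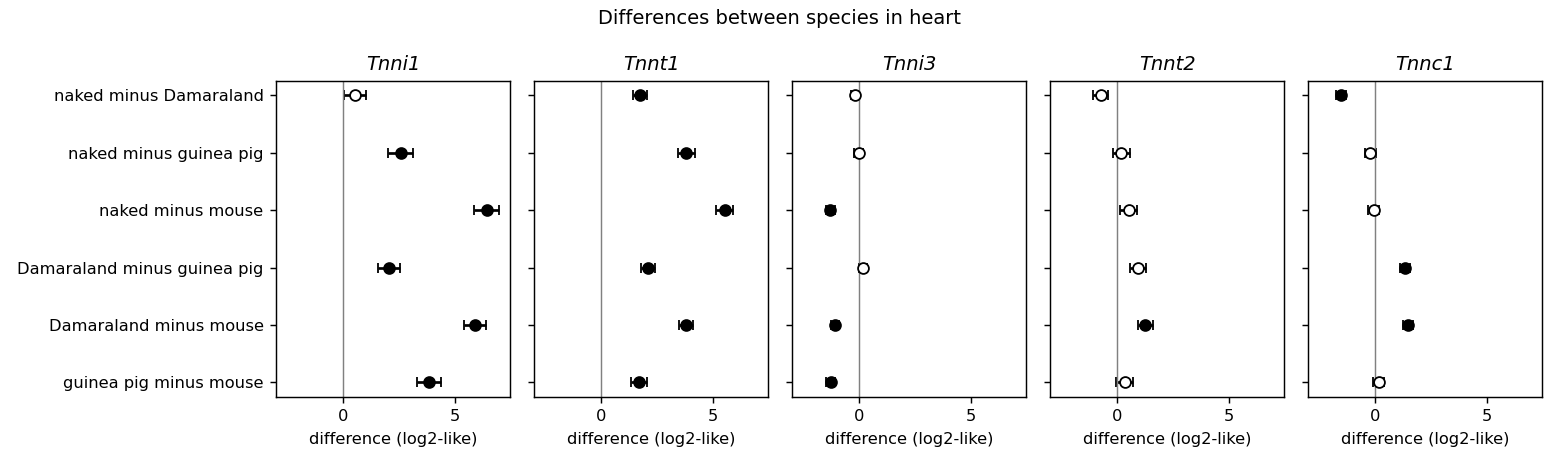
Difference in deposited log2-like value (first species minus second) with its limma standard error for 5 troponin genes and 6 pairs of species in heart; filled points passed an adjusted p of 0.05 and a difference of 1. Tnnt1 is filled in all 6 pairs, Tnni1 in all but naked minus Damaraland mole-rat, and Tnnc1 only where Damaraland mole-rat is one of the pair.

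The fast skeletal genes were scarce in every heart. Tnnt3 had 12, 24 and 0 reads in naked mole-rats, 1, 0, 1, 0 and 0 in Damaraland mole-rats, 0 in each guinea pig and 8, 2 and 4 in mice. The 0 reads in guinea pigs allow up to 0.0562 reads per 1000000 over the 3 libraries, taking 3 reads as the limit and counting error only. Tnnc2 had 14, 6 and 0 reads in naked mole-rats, 1, 2, 3, 1 and 0 in Damaraland mole-rats, 3, 4 and 4 in guinea pigs and 3, 1 and 3 in mice. Differences between species were not readable at this depth, least of all in naked mole-rat 3, where 1 read was worth 3.70 scaled reads.

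Markers of fast skeletal muscle gave another view of the same question. The 14 listed genes summed to 1765 to 2354 scaled reads in naked mole-rat hearts, 565 to 858 in Damaraland, 150 to 288 in guinea pig and 1344 to 2233 in mouse hearts. Of 10 tested, 5 were called higher and 2 lower in mole-rats, beside 10.8% and 12.6% of all genes. The 5 called higher were Mybpc1, Mylpf, Myh1, Myh4 and Myoz1. Mybpc1 encodes the slow form of myosin-binding protein C, so the count and the sums are not of fast genes alone. Pvalb, the calcium buffer of fast fibres, was at 0 in all naked mole-rat hearts. The fast myosins Myh1, Myh2 and Myh4 had 82.0 to 370 scaled reads in naked mole-rats and 0 to 89.0 in the other species. Myoz1, a Z-disc gene of fast fibres, had 431 to 811 in naked mole-rats and 0 to 3.89 in mice. It had enough reads to be tested only through the naked mole-rats. The mouse sum was made up mostly of Mybpc2 (350 to 738), Myl1 (382 to 541), Casq1 (195 to 641) and Cacna1s (230 to 355). The fast myosin range of naked mole-rats thus overlapped that of the other species only at its low end. The 2 genes of the list called lower in mole-rats were Myl1, at -2.01, and Mybpc2, at -1.61. The part of fast skeletal muscle in the Tnnt1 result was not tested. Liver genes moved with the species too: 5 of the 6 hepatocyte markers in the table were called higher in mole-rat hearts, with sums of 11187 to 31697 in naked mole-rats, 3551 to 7074 in Damaraland mole-rats, 3862 to 5567 in guinea pigs and 369 to 1229 in mice. In liver, which was normalised separately, Tnnt1 had at most 139 and Tnni1 at most 18.4 scaled reads. The part of liver RNA in the heart troponin results was not tested. Smooth muscle markers were called higher in mole-rats for 3 of 4 genes, with sums highest in Damaraland mole-rats at 9280 to 14470; their part in the Tnnc1 result was not tested. Of 3 fibroblast, 3 endothelial and 3 leukocyte markers tested, none was called between mole-rats and outgroups by limma, although all 3 endothelial and all 3 leukocyte genes were lower at adjusted p 5.18e-06 to 0.00935, with differences of -0.98 to -0.51. By pair, 3 of 3 endothelial genes were called lower in Damaraland mole-rat than guinea pig, 3 of 3 leukocyte genes lower in naked mole-rat than mouse, and 3 of 3 fibroblast genes higher in guinea pig than mouse. Their part in the troponin results was not tested.

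The balance of isoforms within a subunit was read as a ratio of 2 genes of the same library, with 0.5 added to the scaled reads of each. The size factor enters this ratio through the added 0.5, which bears mostly on genes with few reads. Gene lengths are not known here, so a share of reads is not a share of molecules. Tnni1 made up 14.5%, 16.4% and 22.4% of Tnni1 and Tnni3 reads in naked mole-rats, and 5.56%, 6.21%, 8.31%, 14.0% and 36.9% in Damaraland mole-rats. In guinea pigs the share was 3.20%, 5.95% and 1.49%, and in mice 0.00516% to 0.00611%. Guinea pig 2 overlapped with the lowest Damaraland library, and 7 of 8 mole-rats lay above all outgroups. The log2 ratio of Tnni1 to Tnni3 was 6.74 higher in mole-rats (2-sided exact permutation test, p = 0.000666, adjusted over 4 ratios 0.00133). Of 3003 assignments of 8 against 6 libraries, 2 gave a difference at least as large in size. The tests of ratios treat all libraries as exchangeable, although each side holds only 2 species. The outgroups themselves differed, with a mean log2 ratio of -4.98 in guinea pigs and -13.89 in mice. The p-values therefore describe these libraries and do not measure a difference between mole-rats and outgroups as groups of species.

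Tnnt1 made up 14.9%, 12.4% and 9.65% of Tnnt1 and Tnnt2 reads in naked mole-rats and 1.52% to 3.05% in Damaraland mole-rats (median library 2.69%). In guinea pigs the share was 1.01%, 0.955% and 1.02%, and in mice 0.320%, 0.326% and 0.261%. The 4 species again did not overlap, and the guinea pig libraries, which differed in Tnnt1 and Tnnt2 levels, agreed closely in this share. The log2 ratio of Tnnt1 to Tnnt2 was 3.09 higher in mole-rats and above all outgroups in 8 of 8 libraries (exact permutation test, p = 0.000666, adjusted 0.00133). With each species given the same weight the difference was 3.40.

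For the fast genes the same ratios were not past the threshold. The log2 ratio of Tnnt3 to Tnnt2 differed by -0.72 (exact permutation p = 0.533, adjusted 0.533), and that of Tnnc2 to Tnnc1 by -1.28 (exact permutation p = 0.132, adjusted 0.175). In both, 2 of 8 mole-rats, naked mole-rats 1 and 2, lay above all outgroups. Without naked mole-rat 1 the Tnnc2 to Tnnc1 difference was -1.80 (exact permutation test, adjusted p 0.0109). These ratios rest on 0 to 24 reads of the fast gene. The shares of the slow genes are drawn by library.

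**Figure D4:**
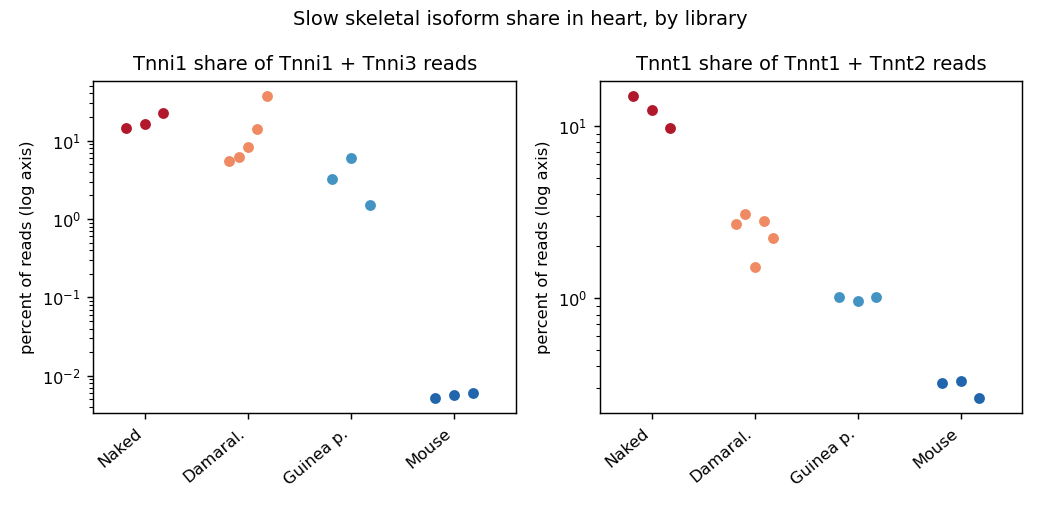
Percent of Tnni1 reads among Tnni1 and Tnni3 reads (left) and of Tnnt1 reads among Tnnt1 and Tnnt2 reads (right) in each of 14 heart libraries, on log axes, by species in replicate order. The Tnni1 share spans from 36.9% in Damaraland mole-rat 5 to 0.00516% in mouse 1, and the Tnnt1 shares of the 4 species do not overlap.

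Other thin filament genes did not all follow the slow troponins. Of 20 listed partners, 17 were in the table and tested, of which 3 were called higher and 2 lower in mole-rats, beside 10.8% and 12.6% of all genes. The median difference was 0.11, beside -0.01 over all genes. Neb, the giant ruler protein of skeletal thin filaments, was higher by 2.44 (SE 0.19, limma adjusted p 8.15e-09). It had 3800 to 4890 scaled reads in naked mole-rats, 1111 to 2775 in Damaraland mole-rats, 869 to 1077 in guinea pigs and 156 to 322 in mice. Among all listed genes, only Neb shared with Tnnt1 the order of 4 species without overlap. Tpm3, slow tropomyosin, was higher by 2.79 (SE 0.19, limma adjusted p 1.74e-09), from 14862 to 39401 scaled reads in Damaraland mole-rats against 665 to 1796 in all other hearts. Damaraland mole-rats were thus highest in both Tpm3 and Tnnc1. Tpm2, the beta tropomyosin, was higher by 1.77 (SE 0.19, limma adjusted p 3.41e-07), with mouse alone far under the rest at 124 to 254 scaled reads.

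The thin filament genes called lower act at the pointed ends of actin filaments. Lmod3, a leiomodin that promotes actin filament growth, differed by -3.19 in mole-rats (SE 0.13, limma adjusted p 5.86e-12), at 140 to 196 scaled reads in naked mole-rats and 5.70 to 21.9 in Damaraland mole-rats, against 648 to 1683 in outgroups. Tmod4, the skeletal tropomodulin, differed by -1.36 (SE 0.10, limma adjusted p 6.07e-09), with 212 to 253 scaled reads in mice and 0 to 12.3 in the other species. Only the mice gave Tmod4 enough reads to be tested, so its call rests on mouse alone. Against guinea pig it differed by -0.42 in naked and -0.04 in Damaraland mole-rats, neither called.

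Of 7 slow muscle genes, 3 were called higher and 1 lower in mole-rat hearts, beside 10.8% and 12.6% of all genes, with a median difference of -0.02. Myh7, the slow and beta cardiac myosin heavy chain, was higher by 4.31 (SE 0.30, limma adjusted p 2.54e-09). Its scaled reads were 493379 to 751625 in naked mole-rats, 141907 to 480070 in Damaraland mole-rats, 187700 to 583393 in guinea pigs and 769 to 1503 in mice. As for Tnni1, mouse was the lowest by far, but Damaraland mole-rats and guinea pigs overlapped in Myh7 and differed by -0.37 (limma adjusted p 0.439). Myh7b, a related myosin, was higher by 4.07 (SE 0.43), with 26437 to 38534 scaled reads in naked mole-rats and at most 21140 elsewhere. Myl2, the ventricular and slow regulatory light chain, was higher by 1.05 (SE 0.22), and Atp2a2, the calcium pump of cardiac and slow muscle, differed by -1.05 (SE 0.16), with mouse highest at 371696 to 405626 scaled reads.

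Cardiac splicing regulators were listed because troponin T transcripts are alternatively spliced; gene-level values do not show exons. Of 7, 1 was called higher and 2 lower in mole-rats, beside 10.8% and 12.6% of all genes. Rbm20, a splicing factor of titin, was higher by 2.22 (SE 0.13, limma adjusted p 2.76e-10), from 16088 to 20675 scaled reads in naked mole-rats, 4592 to 7037 in Damaraland mole-rats, 751 to 1005 in guinea pigs and 4189 to 5306 in mice. Rbfox2 and Mbnl2 differed by -1.33 (SE 0.13) and -1.18 (SE 0.17), both with mouse highest.

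The genes whose heart pattern lay nearest to Tnnt1 and Tnni1 were found by the root mean square distance over 14 libraries among 10667 genes, each gene centred on its mean. Nearest to Tnnt1 were Cirbp, the cold-inducible RNA-binding protein gene, at 0.61, Tmem179 at 0.72 and Arfgef3 at 0.77. Cirbp had mean values of 12.31, 11.45, 9.18 and 8.35 in naked mole-rat, Damaraland mole-rat, guinea pig and mouse, the same order as Tnnt1. Nearest to Tnni1 were E330021D16Rik at 0.93, B4galnt3 at 1.01 and Synm, which encodes the intermediate filament protein synemin, at 1.03. For Synm the means were 13.84, 13.32, 12.99 and 8.50 in the same order of species.

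In liver the troponin genes were low except for Tnnc1 in the guinea pig. Guinea pigs had 2961, 4486 and 2820 scaled reads of Tnnc1. Naked mole-rats had 94.4 to 135 (median 127), Damaraland mole-rats 109 to 225 (median 134) and mice 76.7 and 40.6. Every guinea pig library lay above every other library, as for 11.2% of genes tested in liver. Relative to guinea pig, Tnnc1 differed by -4.43 in naked mole-rat (SE 0.23, limma adjusted p 3.92e-11) and by -4.13 in Damaraland mole-rat (SE 0.22, limma adjusted p 5.38e-11). Guinea pig exceeded mouse by 5.21 (SE 0.28, limma adjusted p 8.76e-11). In mean scaled reads these were 28.3-fold, 21.0-fold and 58.4-fold differences. Tnnc1 was called lower in mole-rats than in outgroups, at -1.68 (SE 0.17, limma adjusted p 1.76e-07), with the guinea pig alone high. It was the 1 gene called of 4 tested, beside 28.1% of 10887 genes.

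Tnnt1 in liver was higher in naked mole-rats and guinea pigs. Naked mole-rats had 69.6, 47.0, 131 and 81.4 scaled reads and guinea pigs 81.8, 139 and 103. Damaraland mole-rats had 2.10 to 7.36 (median 3.19), which is 2 to 8 reads, and mice 8.26 and 23.9. Every Damaraland library lay under every other library in scaled reads, as for 8.43% of genes. Damaraland mole-rat 2 had 8 reads and mouse 1 had 7, so only the size factors order these libraries. Damaraland minus mouse was -0.61 (SE 0.25, limma adjusted p 0.0446), under the size threshold. Naked exceeded Damaraland mole-rats by 1.93 (SE 0.20, limma adjusted p 2.36e-07) and mice by 1.32 (SE 0.26, limma adjusted p 0.000306). Damaraland mole-rats minus guinea pigs was -2.25 (SE 0.22, limma adjusted p 1.14e-07), and guinea pigs exceeded mice by 1.64 (SE 0.28, limma adjusted p 7.64e-05).

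Damaraland mole-rats stood lowest in Tnnt1 in liver and second in heart. The order of species for Tnnt1 therefore differed between the tissues, which were normalised separately and not tested against each other. Tnnt2 had 40.6 to 256 scaled reads in liver, with guinea pig 1.33 above mouse (SE 0.39, limma adjusted p 0.00757) the 1 pair called, and 1.26 without mouse 2 (limma adjusted p 0.0537). Tnni3 had 8.26 to 102 scaled reads with no pair called.

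Tnni1 in liver had 7.27 to 12.4 scaled reads in naked mole-rats, 1.06 to 18.4 in Damaraland mole-rats, 1.36 to 3.50 in guinea pigs and 0 in both mice, which allows up to 0.101 reads per 1000000. Tnnt3 had 0 to 2 reads in every liver library and Tnnc2 0 to 10. These 3 genes were under the filter and not tested. By pair, 1 of 4 troponin genes was called for naked against Damaraland mole-rat (34.2% of genes), 1 for naked mole-rat against guinea pig (37.8%), 1 for naked mole-rat against mouse (41.2%), 2 for Damaraland mole-rat against guinea pig (36.2%), 1 for Damaraland mole-rat against mouse (39.2%) and 3 for guinea pig against mouse (37.2%). Damaraland mole-rat against mouse was Tnnc1, at 1.08 (SE 0.25, limma adjusted p 0.00132), which was 0.79 without mouse 2 (limma adjusted p 0.0514), 0.97 without Damaraland mole-rat 1, 0.99 without Damaraland mole-rat 2 and 0.86 under quantile normalisation, each under the size threshold. Naked mole-rat against mouse gained Tnnt2 without naked mole-rat 1 (1.22) or Tnnc1 without mouse 1 (1.07). The plot of liver values by library shows how close Tnni1, Tnnt3 and Tnnc2 lay to 0 reads.

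**Figure D5:**
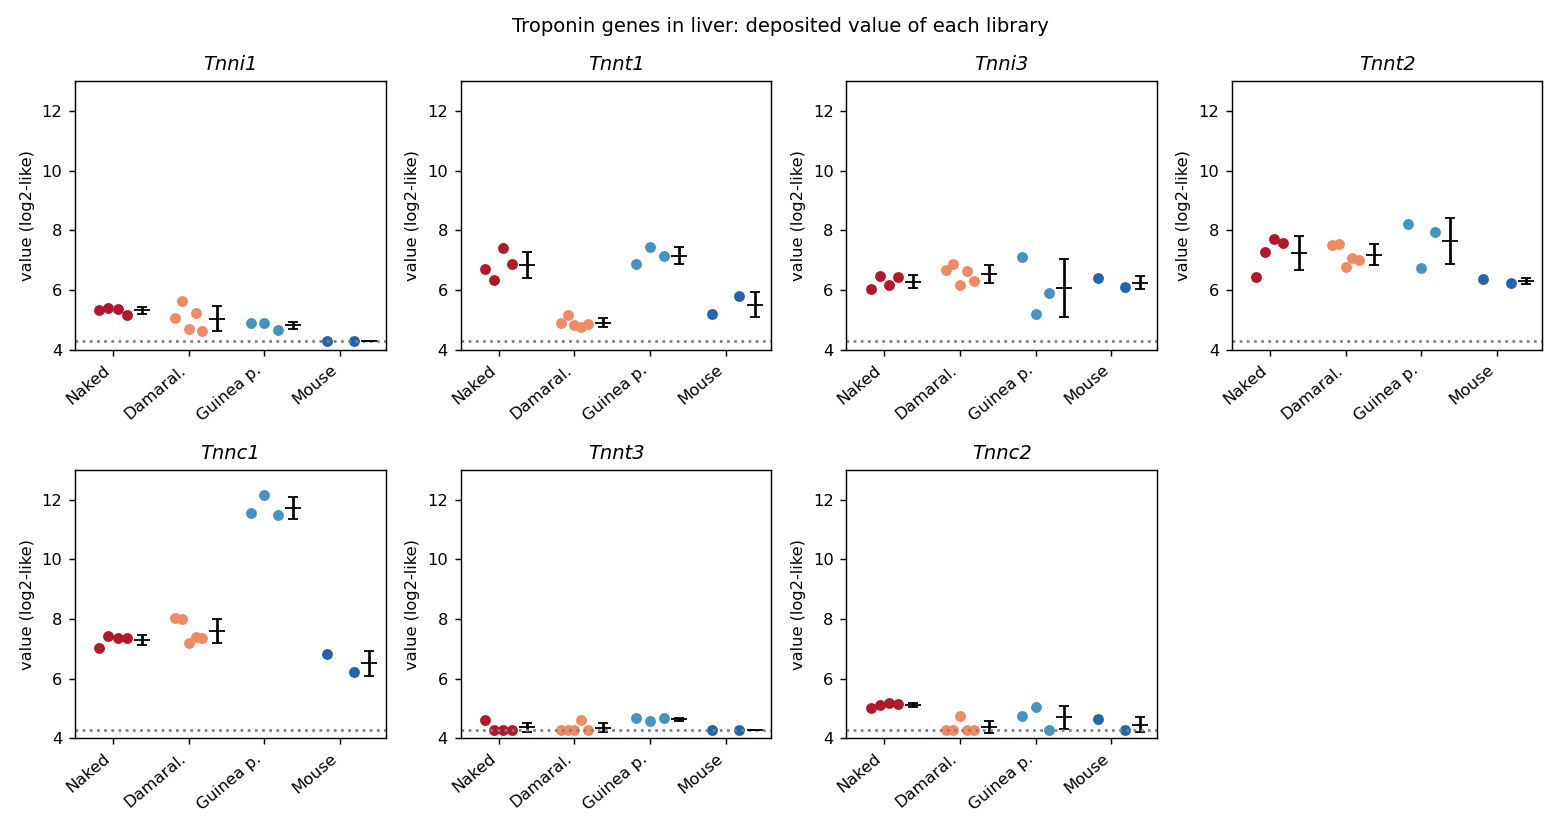
Deposited log2-like value of each liver library (points, in replicate order) for 7 troponin genes by species (n = 4, 5, 3 and 2 from naked mole-rat on the left to mouse), with mean and SD; the dotted line is the value of 0 reads, 4.29. Guinea pig Tnnc1 stands above every other library, and Damaraland Tnnt1 lies nearest the dotted line of all species.

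The liver libraries also held reads of Myh6 at 252 to 1933 scaled reads, so troponin reads were set beside Myh6 in the same library. Per 1000 Myh6 reads, Tnnc1 gave 1672 to 17803 reads in guinea pig liver and 75.4 to 103 in guinea pig heart. Damaraland liver gave 110 to 120 and heart 64.5 to 122, and mouse liver gave 69.6 and 90.2 and heart 50.1 to 63.8. Naked mole-rat liver gave 181 to 232 and heart 61.4 to 429, where Myh6 itself ran from 79102 to 518123 scaled reads in heart. Guinea pig liver was thus far above guinea pig heart on this measure for Tnnc1, while liver and heart overlapped in both mole-rat species. Tnnt1 gave 46.2 to 551 per 1000 Myh6 reads in guinea pig liver against 1.38 to 3.46 in heart, and 9.71 and 41.0 in mouse liver against 0.262 to 0.350 in heart. In Damaraland mole-rats the ranges for Tnnt1 were 1.78 to 3.81 in liver and 2.57 to 5.40 in heart, and in naked mole-rats 63.2 to 189 and 31.8 to 180. The part of heart RNA in these liver values was not tested.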

How the data were processed

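Ribosomal-RNA-depleted total RNA of 14 heart and 14 liver libraries was quantified by the authors; per the submitters' processing notes the tools were cutadapt, Salmon 013.1 and DESeq2, and the notes name the GRCm38 build. The index used for each species and the matching of genes across species are not given in the sources used here. The authors deposited 1 table per tissue of values on a log2-like scale (the variance-stabilising transform of DESeq2, as read from the values), with 13928 genes by mouse identifier, of which 13921 matched a symbol. A further 26 columns of other series were not used. Inverting the transform gave whole reads for 100% of values (largest deviation 6.85e-08), used for levels, depth and ratios. limma 3.58.1 in R 4.3.3 (lmFit, then eBayes with a trend, 1 coefficient per species, 1 fit per tissue) was run on the deposited log2-like values of genes with a mean at least 1 above the value of 0 reads, 10667 in heart and 10887 in liver, with Benjamini-Hochberg adjustment over them. Isoform ratios (pseudocount 0.5 on scaled reads) were compared by exact permutation in Python 3.11.15 with NumPy 2.4.6 and adjusted over 4 ratios. SciPy 1.17.1 was used for the exact Poisson interval. The scripts were tested on simulated data. Libraries of a tissue came from separate animals. Named genes are the troponin genes, the 3 nearest genes to each one called in heart, called genes of the listed partners and defining genes of the marker lists, the last picked after their values were seen. The members and lists were chosen with earlier results of these data known. Alternatives covered the size threshold, filter, scaling, variance model, weights, voom on recovered reads, a block for replicate number, the fit of 2 species alone, pseudocounts and each library left out in turn. No sequences are shown.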

Additional observations from a re-analysis of the deposited data

Results flagged for a closer look

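In heart and liver, 4 of 42 pairs of species and troponin genes had libraries that did not overlap in either tissue and differed in opposite directions; the differences between tissues were not tested. Tnnt1 was 2.09 higher in Damaraland mole-rat than in guinea pig heart and differed by -2.25 in liver. Against mouse, Damaraland Tnnt1 differed by 3.80 in heart and by -0.61 in liver, where the pair was not called. Tnnc1 in Damaraland mole-rat against guinea pig differed by 1.32 in heart and -4.13 in liver. Tnnt3 in guinea pig against mouse differed by -0.40 in heart and 0.35 in liver, on 0 to 8 reads.

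In 25 groups of at least 4 libraries, each group was looked at for a library far from the rest, and 4 groups held one. Smaller groups were not looked at: naked mole-rat, guinea pig and mouse hearts, and guinea pig and mouse livers. Heart Tnni1 in Damaraland mole-rat 5 was looked at and not flagged. For 3 of these the rest of the group was at 0 reads, so that any read sets a library apart and the usual chance rate of about 1 in 20 does not apply. Tnnt3 in liver was 4.61 in naked mole-rat 1 and 4.29, the value of 0 reads, in the other 3, a difference of 1 read. Tnnt3 in liver was 4.62 in Damaraland mole-rat 4, also 1 read, and 4.29 in the rest. Tnnc2 in liver was 4.77 in Damaraland mole-rat 3, from 3 reads, and 4.29 in the rest. The log2 ratio of Tnnc2 to Tnnc1 in heart was -17.62 in Damaraland mole-rat 5, which had 0 Tnnc2 reads, and -15.64 to -15.32 in the others.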

How the results depend on the processing

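In heart, the counts of called troponin genes changed with the threshold: 5 for mole-rats against outgroups without a size threshold, and, tested against a difference of 1, 0 for naked against Damaraland mole-rat, 1 for Damaraland mole-rat against guinea pig, 2 against mouse and 1 for guinea pig against mouse. In liver, mole-rats against outgroups gave 2 without a size threshold and 2 with voom. Tested against a difference of 1, liver gave 0 for naked mole-rat against mouse, 0 for Damaraland mole-rat against mouse and 1 for guinea pig against mouse. With genes above the table median, which leaves fewer troponin genes, it gave 0 for naked against Damaraland mole-rat, 0 for naked mole-rat against mouse, 1 for Damaraland mole-rat against guinea pig and 1 for guinea pig against mouse. Naked mole-rat against mouse liver gave 3 without a size threshold and 2 without a filter, centred on the median or with voom; Damaraland mole-rat against mouse gave 3 without a size threshold and 2 with voom. The cause of the scaling and voom changes was not tested.

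Differences that changed sign were small and not called. In heart, naked mole-rat minus guinea pig became -0.22 for Tnnt2 (quantile normalisation), 0.0098, 0.12 and 0.090 for Tnni3 (centred, sample weights, without the 3 atrial-high libraries) and 0.018 for Tnnc1 (without those libraries); naked mole-rat minus mouse became 0.11, 0.015 and 0.064 for Tnnc1 (quantile normalisation, sample weights, without those libraries). In liver, Tnnt2 in naked minus Damaraland mole-rat became -0.12 (sample weights), and under quantile normalisation Tnni3 minus mouse became -0.21 in naked and -0.021 in Damaraland mole-rat.

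Leaving out each library in turn, heart counts ran 2 to 2 for mole-rats against outgroups, 2 to 3 for naked against Damaraland mole-rat and 3 to 4 for Damaraland mole-rat against guinea pig, with the other pairs unchanged. Liver counts ran 1 to 2 for naked mole-rat against mouse, 0 to 1 for Damaraland mole-rat against mouse (0 without Damaraland mole-rat 1 or 2 or mouse 2) and 2 to 3 for guinea pig against mouse; without a mouse, limma takes the lone mouse to vary like the other groups. Ratio differences ran 5.83 to 7.83 (Tnni1 to Tnni3), 2.82 to 3.32 (Tnnt1 to Tnnt2), -1.25 to -0.25 (Tnnt3 to Tnnt2) and -1.80 to -0.90 (Tnnc2 to Tnnc1). In single genes, leaving out a library gave -0.11 to 0.58 for heart Tnnt2 in naked mole-rat minus guinea pig, -0.11 to 0.13 for Tnni3 in the same pair, -0.19 to 0.064 for Tnnc1 in naked mole-rat minus mouse and -0.061 to 0.63 for Tnnt2 in guinea pig minus mouse. In liver it gave -0.090 to 0.33 for Tnnt2 in naked minus Damaraland mole-rat, -0.23 to 0.73 for Tnni3 in naked mole-rat minus guinea pig, -0.12 to 0.18 for Tnni3 in naked mole-rat minus mouse and -0.70 to 0.25 for Tnni3 in guinea pig minus mouse. The Tnnt1 to Tnnt2 difference was 3.40 from means of species means.

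Replicate numbers did not pair the samples. This was read from each library's deviations from its species mean, correlated over genes between libraries of different species. In heart, 18 same-numbered pairs gave -0.26 to 0.30 (median -0.018, beside -0.0095 for differently numbered pairs). In liver, 16 gave -0.23 to 0.15 (median 0.026, beside -0.0023). With the replicate block, heart counts were 2 for mole-rats against outgroups, 3 for naked against Damaraland mole-rat (Tnni1 added at 1.18, limma adjusted p 0.00775) and 4 for Damaraland mole-rat against mouse (Tnni3 at -0.92), and the other counts did not change. The ratio of Tnni2 to Tnni3 was not run. On recovered reads with voom, Tnni1 was 6.31 higher in mole-rat hearts and 10.43 higher in naked mole-rat than mouse, where 4 reads a mouse limit the precision.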
